A study of Homo sapiens with 6 samples.

Results

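Genes of the epithelial-mesenchymal transition (EMT) were followed in MDA-MB-231 shBry cells against MDA-MB-231 shNC cells. They were chosen by symbol as the EMT transcription factor genes SNAI1, SNAI2, ZEB1, ZEB2 and TWIST2, the mesenchymal genes VIM and FN1, and the cadherin genes CDH1, CDH2 and CDH11. All 10 were found among the 54259 gene symbols of the count table. MDA-MB-231 is an established breast cancer cell line of mesenchymal appearance. The shBry cells (3 libraries) carry a short hairpin RNA against brachyury, a T-box transcription factor, and the shNC cells (3 libraries) carry a control hairpin. The sources used here neither give the hairpin's sequence nor say whether the cells were a clone or a pool, or whether the libraries came from separate cultures, so p-values measure only the spread between these libraries.

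In EMT, epithelial cells lose their contacts and gain a motile, mesenchymal state. The SNAI and ZEB proteins are zinc-finger repressors that bind E-boxes in the promoters of epithelial genes, E-cadherin (CDH1) among them, and TWIST proteins are basic helix-loop-helix factors that act in the same program. In the cadherin switch, E-cadherin is lost and N-cadherin (CDH2) or other mesenchymal cadherins are gained, while vimentin (VIM, an intermediate filament protein) and fibronectin (FN1, a matrix protein) mark the mesenchymal state.

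Between 19319411 and 22985371 reads were counted on genes in each library. A count of 0 therefore allows up to 0.126 to 0.162 CPM (counts per 1000000 counts of the library, with library sizes scaled by edgeR's TMM factors), taken as 3 counts in a library, and this limit covers counting error only. All 6 marker genes expected in this line (EGFR, CD44, AXL, CAV1, MSN and ANXA1) had at least 10 counts in every library, with CAV1 lower in shBry. Of the 4 expected to be absent, ESR1 and PGR had at most 1 count, but FOXA1 and EPCAM were present at a mean of 6.07 and 4.28 CPM in shBry and 5.75 and 1.55 CPM in shNC. Brachyury, listed under its older symbol T, had 0 counts in all 6 libraries, so the knockdown could not be checked in these counts. The study describes this cell line as overexpressing brachyury constitutively, but no brachyury RNA was counted in the shNC libraries either. Summed over 8 fibroblast markers, the level was 31.8 to 35.5 CPM in shBry and 30.2 to 35.9 CPM in shNC, nearly all of it COL1A1 and PDGFRB, with DCN at 0. Summed over 6 leukocyte markers it was 0.621 to 1.05 CPM in shBry and at least 1.80 CPM in shNC, mostly CD14, with PTPRC and TYROBP at 0, and over 4 endothelial markers 1.29 to 2.62 and 3.40 to 4.63 CPM. The sum over 8 markers of normal breast epithelium was 560 to 700 CPM in shBry and 1339 to 1456 CPM in shNC, mostly keratins 8 and 18, with KRT5, KRT14 and ELF5 at 0. The part of these shifts in the results that follow was not tested.

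Across the EMT genes, the transcription factor genes SNAI1, ZEB1 and ZEB2 were higher in shBry by 1.53 to 1.65 times, VIM was lower by less than the fold change limit, SNAI2 and FN1 did not pass the test, and the cadherins of the classical switch were almost silent in both groups. Of the 10 genes, 6 had enough counts to be tested in edgeR's quasi-likelihood fit over 15277 genes. To be called, a gene needed more than a 1.5-fold difference as well as an adjusted p (Benjamini-Hochberg) under 0.05. SNAI1, ZEB1 and ZEB2 were called, all higher in shBry, and none was called lower. Among all genes tested 32.4% were called, 17.1% higher and 15.2% lower. VIM made 4 genes in all with an adjusted p under 0.05 at any fold change, which 53.3% of all genes had. The 3 shBry values did not overlap the 3 shNC values for 5 of the 6 genes, 4 higher and 1 lower, against 59.5% of all genes tested, 30.6% higher and 28.9% lower. Their median log2 fold change was 0.51, beside 0.03 over all genes tested. Of the genes tested, 27.1% had a larger fold change in either direction than SNAI1, the most changed of the 6. In bulk RNA of this kind, fewer cells of a type and less RNA per cell cannot be told apart.

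**Figure D1:**
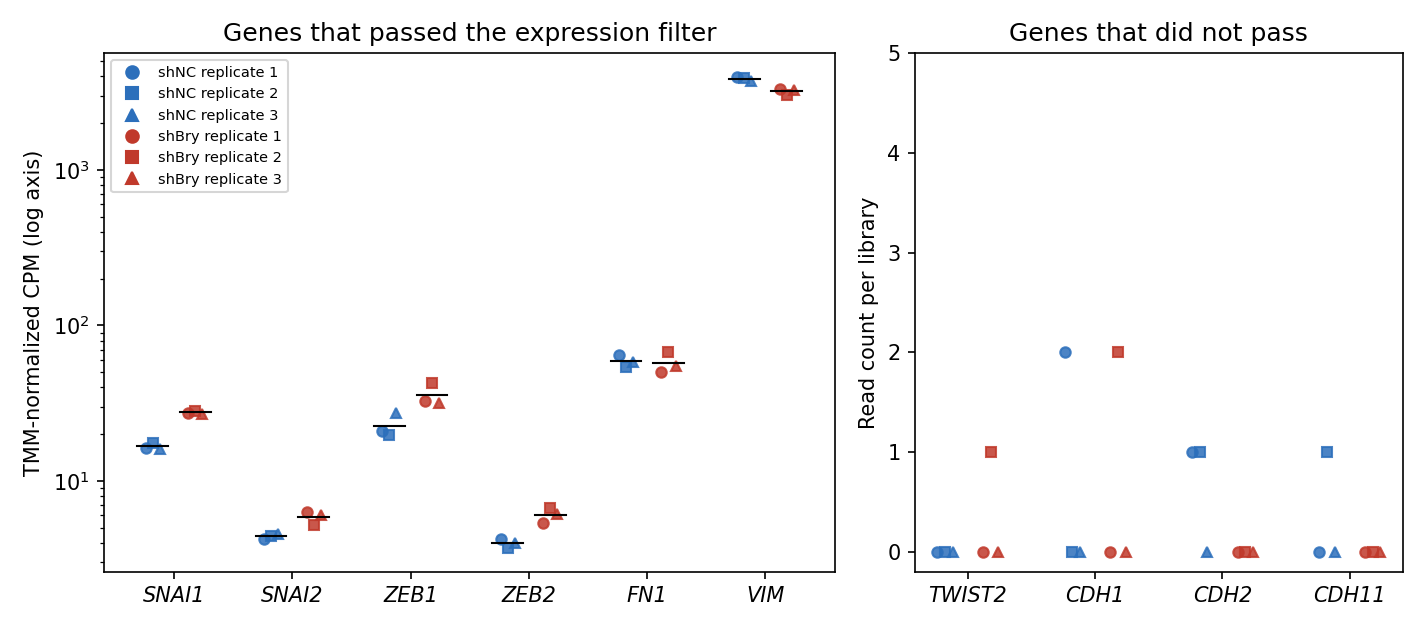
Left, TMM-normalized CPM (log axis) of the 6 tested genes in each library, with shNC in blue, shBry in red, 1 symbol per replicate number and black bars for group means. Right, raw read counts of the 4 untested genes. SNAI1, SNAI2, ZEB1 and ZEB2 lie higher in all 3 shBry libraries, VIM lower, FN1 overlaps, and no untested gene exceeds 2 counts.

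SNAI1 encodes Snail, a repressor of E-cadherin. Its 1 transcript in GENCODE 29 spans bases 49982999 to 49988886 of chromosome 20 (GRCh38, plus strand). It had 27.2, 28.4 and 27.1 CPM in shBry replicates 1, 2 and 3, and 16.4, 17.5 and 16.1 CPM in shNC replicates 1, 2 and 3. The groups were far apart next to their spread. The mean rose from 16.7 ± 0.767 to 27.6 ± 0.697 CPM (SD, n = 3), with a difference on the log2 scale (log2FC, shBry minus shNC) of 0.73 (standard error, SE, 0.11, quasi-likelihood p of edgeR after Benjamini-Hochberg adjustment 7.2e-05). With each library left out in turn it lay between 0.67 and 0.74 and stayed called.
SNAI2 encodes Slug, the close relative of Snail. It lies on chromosome 8 from 48917604 to 48921740, on the minus strand. It had 6.35, 5.18 and 6.07 CPM in shBry and 4.26, 4.40 and 4.56 CPM in shNC. All shBry values were above all shNC values, but the gene did not pass the test, with a log2FC of 0.41 (SE 0.17, 95% interval 0.04 to 0.78, edgeR adjusted p = 0.057). Without shBry replicate 2, its lowest shBry library, the log2FC was 0.48 and the edgeR adjusted p was 0.034, still under the fold change limit. The log2 ratio of SNAI1 to SNAI2 per exon length was 3.11 to 3.46 in shBry, with a mean of 2.93 ± 0.09 (SD, n = 3) in shNC, and the groups did not overlap. SNAI1 was thus the higher of the pair in every library.

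ZEB1, a repressor with a zinc-finger cluster at each end of the protein, lies on chromosome 10 from 31318495 to 31529814, on the plus strand, with 25 transcripts. It had 32.9, 43.0 and 31.7 CPM in shBry and 20.8, 19.6 and 27.3 CPM in shNC. The groups did not overlap, although shBry replicate 2 and shNC replicate 3 each stood above their group. These libraries also differed most from their group over genes in general, measured as chi-square per degree of freedom between 2 libraries. It was 15.51 and 11.02 for shBry pairs with replicate 2, against 6.07 without it. For shNC pairs it was 9.90 and 8.22 with replicate 3, against 4.70 without it. The part of this spread in the ZEB1 values was not tested. The mean of ZEB1 rose from 22.6 ± 4.12 to 35.8 ± 6.18 CPM (SD, n = 3), with a log2FC of 0.67 (SE 0.15, edgeR adjusted p = 0.0016). ZEB2, its paralog, lies on chromosome 2 from 144364364 to 144524583 (minus strand) and has 48 transcripts. It had 5.38, 6.66 and 6.12 CPM in shBry and 4.22, 3.69 and 4.01 CPM in shNC, with no overlap. The mean rose from 3.97 ± 0.266 to 6.05 ± 0.640 CPM (SD, n = 3), with a log2FC of 0.61 (SE 0.18, edgeR adjusted p = 0.0093), a fold change of 1.53 beside the limit of 1.5.
Both ZEB calls depended on 2 libraries. Without shBry replicate 2 the log2FC was 0.50 for ZEB1 and 0.52 for ZEB2, and without shNC replicate 2 it was 0.56 and 0.54. In these fits both fell under the fold change limit, and SNAI1 was the 1 gene called. The log2 ratio of ZEB1 to ZEB2 per exon length was 3.91 to 4.22 in shBry and 3.84 to 4.30 in shNC. These ranges overlapped, so a difference in the balance of the pair did not exceed the spread between libraries.

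**Figure D2:**
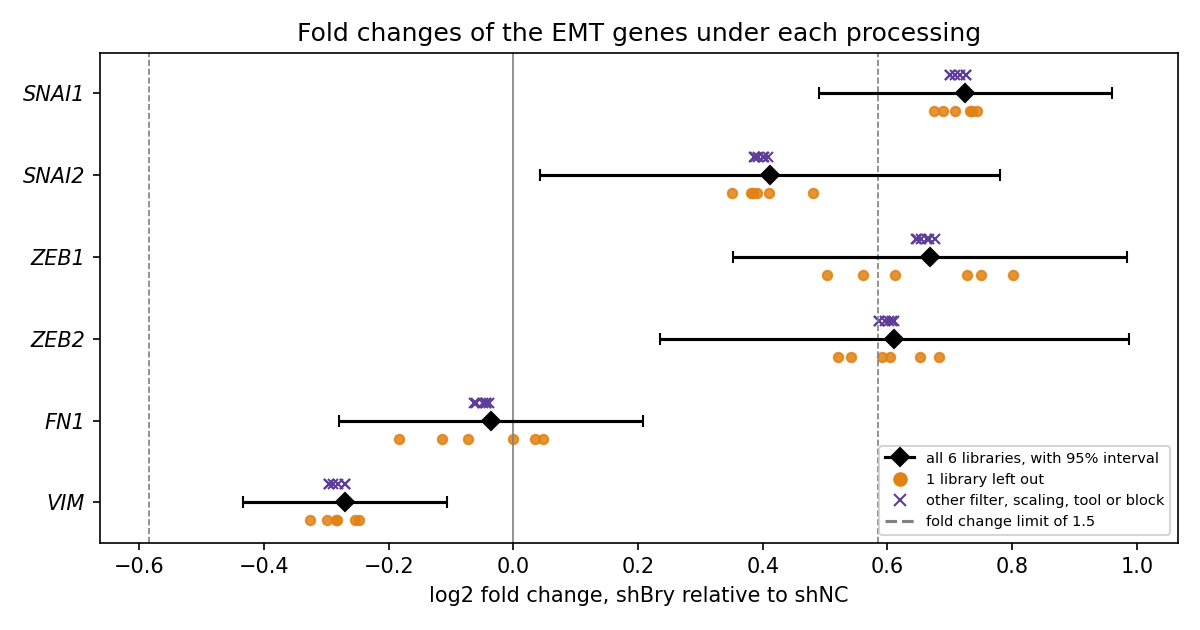
Log2 fold change of shBry relative to shNC for each tested EMT gene. Black diamonds are the fit of all 6 libraries with 95% intervals, orange points the fits without 1 library, purple crosses the other filters, scalings, tools and the replicate block, and dashed lines the fold change limit of 1.5. SNAI1 stays beyond the limit in each fit, ZEB1 and ZEB2 cross it when a library is left out, and FN1 lies around 0.

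Antisense genes overlap both ZEB genes and VIM. ZEB1-AS1, on the minus strand of chromosome 10 from 31206278 to 31320447, covers 4.23% of the exon bases of ZEB1. It had 10.1, 11.1 and 10.3 CPM in shBry and 4.58, 6.19 and 6.76 CPM in shNC, with no overlap, and rose with a log2FC of 0.85 (SE 0.17, edgeR adjusted p = 6.8e-04). Whether reads were counted by strand is not given in the sources used here, so reads in the shared part cannot be told apart. ZEB2-AS1 overlaps 5.18% of the exon bases of ZEB2 and had 0 counts in all libraries. Antisense genes overlap 24.4% of the exon bases of VIM, and VIM-AS1 (12.4%) had a log2FC of -0.19 (edgeR adjusted p = 0.34). The other antisense gene, AL133415.1 (12.0%), is not among the gene symbols counted, so its level is not known.
The sequences before the starts of ZEB1, which moved together with its antisense gene, and of VIM, the gene that was lower, are shown as the 250 bases upstream of a RefSeq start (GRCh38.p14), with CAGGTG, an E-box bound by SNAI and ZEB factors, in capitals. The ZEB1 stretch is chr10:31318167-31318416 on the plus strand, before the most upstream of its 7 RefSeq starts. The VIM stretch is chr10:17227991-17228240 on the plus strand.
ZEB1: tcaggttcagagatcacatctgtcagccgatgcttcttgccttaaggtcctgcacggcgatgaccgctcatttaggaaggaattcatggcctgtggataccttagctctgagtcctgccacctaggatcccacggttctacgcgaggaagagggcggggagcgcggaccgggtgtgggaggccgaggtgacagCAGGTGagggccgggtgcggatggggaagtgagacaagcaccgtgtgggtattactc
VIM: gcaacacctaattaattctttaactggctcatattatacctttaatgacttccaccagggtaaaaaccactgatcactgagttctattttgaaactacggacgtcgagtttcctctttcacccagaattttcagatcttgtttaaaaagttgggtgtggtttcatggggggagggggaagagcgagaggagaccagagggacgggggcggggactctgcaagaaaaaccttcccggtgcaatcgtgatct
The ZEB1 stretch holds 1 CAGGTG, beginning 57 bases before the start, and the VIM stretch holds none. CAGGTG was searched on both strands (reverse complement CACCTG), as was AGGTGTGA, the half-site of T-box factors (reverse complement TCACACCT), which shares the letters AGGTG with it. RefSeq entries were at hand for 6 of the 10 genes (ZEB1, ZEB2, VIM, FN1, TWIST2 and CDH2), with 13 starts in all. CAGGTG occurred before 2 of these, both of ZEB1, and in 17.5% of all 35116 stretches of the same length. One of the 2 is the stretch shown. The other, chr10:31318966-31319215, lies wholly on exon bases of ZEB1. Only 4 of the 13 stretches hold no exon base of their own gene. Among these, the ZEB1 stretch chr10:31319518-31319767, not shown, holds no CAGGTG. AGGTGTGA occurred before none of the 13 and in 0.786% of all stretches.

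TWIST2, which encodes a basic helix-loop-helix factor, lies on chromosome 2 from 238848032 to 238910543. It had 1 count in shBry replicate 2 and 0 in the other libraries, so a difference was not detectable at this depth. Of 13 coding genes within 1 Mb on either side, 12 had at least 10 counts in every library.

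Vimentin, the main intermediate filament protein of mesenchymal cells, ranked 14 among the 15277 tested genes by mean CPM. VIM lies on chromosome 10 from 17228259 to 17237593, on the plus strand, and took 0.313% to 0.322% of all counts in shBry libraries and 0.376% to 0.400% in shNC libraries. It had 3318, 3032 and 3263 CPM in shBry and 3982, 3903 and 3706 CPM in shNC. Each shBry library was below each shNC library. The difference was small, from 3864 ± 142 to 3204 ± 152 CPM (SD, n = 3), with a log2FC of -0.27 (SE 0.08, 95% interval -0.43 to -0.11, edgeR adjusted p = 0.0085). It passed the test on p but not the fold change limit, so VIM was not called.
FN1 lies on chromosome 2 from 215360440 to 215436172, on the minus strand. It had 50.1, 67.3 and 54.5 CPM in shBry and 64.6, 53.9 and 57.9 CPM in shNC, and the groups overlapped. Its log2FC was -0.04 (SE 0.11, 95% interval -0.28 to 0.21, edgeR adjusted p = 0.81), and its sign turned without shBry replicate 1 (0.05) or without shNC replicate 1 (0.03). The log2 ratio of FN1 to VIM per exon length lay between -7.80 and -7.24 in shBry and between -7.92 and -7.69 in shNC, with overlap.
Set side by side per kilobase of exon length (RPKM, on TMM-scaled libraries), the mean level in shNC was 749 for VIM, 9.89 for SNAI1, 3.40 for FN1, 2.61 for ZEB1, 1.30 for SNAI2 and 0.158 for ZEB2. In shBry it was 621 for VIM, 16.4 for SNAI1, 4.14 for ZEB1, 3.31 for FN1, 1.73 for SNAI2 and 0.242 for ZEB2. Within libraries, ZEB1 was above FN1 in all 3 shBry libraries (3.80 against 2.89, 4.97 against 3.89 and 3.66 against 3.15 RPKM) and FN1 was above ZEB1 in all 3 shNC libraries (3.73 against 2.41, 3.12 against 2.27 and 3.34 against 3.16 RPKM). The order in shBry depended on the length used: per kilobase of the longest transcript, FN1 was above ZEB1 in all 6 libraries, with means of 6.25 and 5.72 RPKM in shBry. Over all exon bases, the ranges of FN1 and ZEB1 across the libraries of a group overlapped, and those of the other neighbours among the 6 genes did not.

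The cadherins that give the switch its name were nearly absent. CDH1, on chromosome 16 from 68737225 to 68835548, had 2 counts in shBry replicate 2, 2 in shNC replicate 1 and 0 in the other libraries. CDH2, on chromosome 18 from 27950966 to 28177446, had 1 count in each of shNC replicates 1 and 2 and none elsewhere. CDH11, a mesenchymal cadherin also called OB-cadherin, lies on chromosome 16 from 64943753 to 65126112 and had 1 count, in shNC replicate 2. All 3 lay under the limit that a count of 0 allows, so neither a ratio of CDH2 to CDH1 nor a difference between the groups could be given at this depth. Around CDH1, 35 of 41 coding genes within 1 Mb had at least 10 counts in every library. Around CDH2 the 1 coding gene of the window did not, and around CDH11 there was none in the table.
Other cadherins were expressed. Of 22 cadherin genes, the 3 above included, 9 had no count in any library and 5 could be tested. Of the 5, 1 was called higher and 2 lower (60.0%, against 32.4% of all genes tested). CDH4 (R-cadherin), named after its values were seen, held most cadherin counts, 65.0% to 70.0% in shBry and 66.8% to 69.8% in shNC. It had 117 ± 4.59 CPM in shNC and 85.4 ± 8.87 CPM in shBry (SD, n = 3), with a log2FC of -0.46 (edgeR adjusted p = 6.8e-04), under the fold change limit. CDH3 (P-cadherin), the neighbour of CDH1 on chromosome 16, had 8.88, 8.01 and 8.60 CPM in shBry and 2.98, 3.31 and 3.86 CPM in shNC. It rose with a log2FC of 1.33 (SE 0.17, edgeR adjusted p = 1.7e-05), with 11.1% of its exon bases shared with other genes. CDH10 fell from 11.3 ± 2.90 to 5.66 ± 0.417 CPM (SD, n = 3, 95% interval of the log2FC -1.39 to -0.60, edgeR adjusted p = 4.2e-04). CDH24 fell from 37.4 ± 4.35 to 24.4 ± 2.25 CPM (SD, n = 3), with a log2FC of -0.62 (edgeR adjusted p = 5.0e-04), but the log2FC was -0.58 without shBry replicate 2 and -0.54 without shNC replicate 2, under the limit. CDH13 (T-cadherin) and CDH18, also named after their values were seen, had too few counts to pass the filter of a minimum count of 10. CDH13 had 13, 11 and 9 counts in shBry and 0 in each shNC library. CDH18 had 17, 7 and 31 counts in shBry and 2, 2 and 4 in shNC. Without the filter, with DESeq2, or without shNC replicate 1 or 3, 5 of the other 19 cadherins were called in place of 3.

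**Figure D3:**
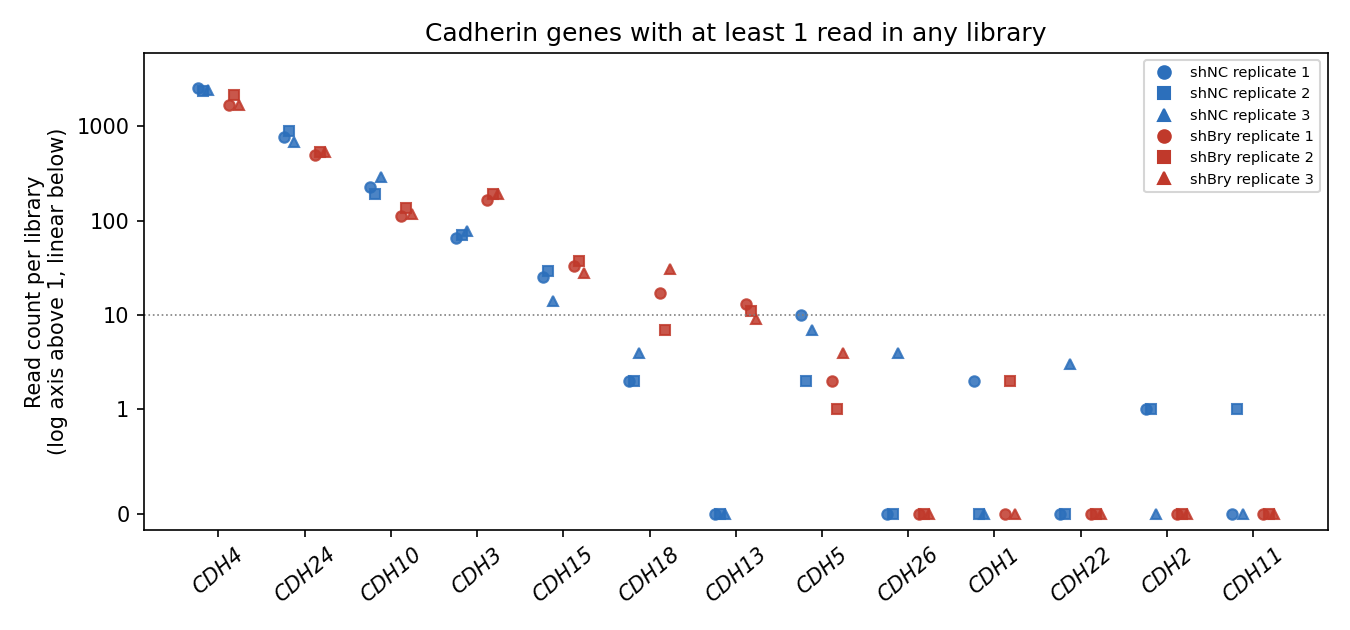
Raw read counts of the 13 cadherin genes with a read in any library (log axis above 1, linear below), in order of mean CPM, with shNC in blue, shBry in red and 1 symbol per replicate number. The dotted line marks 10 counts. CDH4 and CDH24 lie highest, CDH3 is higher and CDH10 lower in shBry, and CDH1, CDH2 and CDH11 have at most 2 counts.

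Genes around these factors were read from 11 lists written from general knowledge, with earlier results of these data known. The percentages that follow are called shares of the tested genes of a list, to be set beside 32.4% of all genes tested. Of 13 other EMT-linked transcription factors, 9 were tested, 2 were called higher and 1 lower (33.3%). SNAI3, the remaining SNAI gene, differed in direction from SNAI1. It had 0.592, 0.717 and 0.488 CPM in shBry and 3.80, 2.79 and 2.75 CPM in shNC, and fell by 2.37 on the log2 scale (SE 0.29, edgeR adjusted p = 1.1e-05), with 9.41% of its exon bases overlapped by other genes. FOXC1, a forkhead factor, rose from 9.90 ± 0.465 to 20.2 ± 1.28 CPM (SD, n = 3), with a log2FC of 1.03 (edgeR adjusted p = 9.2e-06). SOX4, an HMG-box factor, rose with a log2FC of 0.66 (edgeR adjusted p = 0.0050), but with 0.54 without shBry replicate 2 and 0.50 without shNC replicate 2, under the limit.
Among 11 epithelial identity factors, which oppose EMT in normal epithelium, 7 were tested, 3 were called higher and 1 lower (57.1%). The median log2FC of the 7 was 0.93. ELF3, an ETS factor, rose from 0.396 ± 0.113 to 3.30 ± 0.560 CPM (SD, n = 3), with a log2FC of 3.04 (SE 0.31, edgeR adjusted p = 1.9e-06), with 18.5% of its exon bases shared with other genes. ESRP2, an epithelial splicing regulator, rose from 2.98 ± 0.409 to 6.80 ± 1.09 CPM (SD, n = 3), with a log2FC of 1.18. ELF3 had only 8, 11 and 6 counts in shNC replicates 1, 2 and 3. RBM47, the 1 factor called lower, fell from 3.30 ± 0.316 to 1.78 ± 0.337 CPM (SD, n = 3), with a log2FC of -0.88 (edgeR adjusted p = 0.0059). GRHL3, the remaining factor called higher, had 10, 40 and 15 counts in shBry and 0, 4 and 3 in shNC. Its log2FC was 3.07 (edgeR adjusted p = 0.0020), at a mean under 1 CPM. ELF3, ESRP2 and GRHL3 were thus higher, and RBM47 lower, in the libraries in which SNAI1, ZEB1 and ZEB2 were higher. Among 102 tested genes of the lists, ELF3, FOXC1 and AJUBA had the highest correlation with SNAI1 over the 6 libraries. Pearson's r of log2(CPM + 0.5) was 0.996, 0.983 and 0.982. It does not compare levels or sizes of change, and the 6 libraries share the split into 2 groups.

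Of 13 corepressor genes that work with SNAI and ZEB factors, 2 were called higher and 3 lower (38.5%), with a median log2FC of -0.24. AJUBA, a LIM protein that binds Snail, rose from 104 ± 1.67 to 254 ± 21.0 CPM (SD, n = 3), with a log2FC of 1.29 (SE 0.08, edgeR adjusted p = 1.8e-08). HDAC1, a histone deacetylase, fell from 225 ± 11.4 to 131 ± 7.70 CPM (SD, n = 3), with a log2FC of -0.77.
Of 12 genes for kinases and ubiquitin pathway proteins that act on SNAI proteins, 11 were tested, 2 were called higher and 1 lower, 27.3% against 32.4% of all genes. Without shNC replicate 3, 5 were called. GSK3B, the kinase that marks Snail for degradation, had 27.3, 31.1 and 28.7 CPM in shBry and 47.0, 46.9 and 50.9 CPM in shNC and fell with a log2FC of -0.73 (SE 0.10, edgeR adjusted p = 2.3e-05). PSMD14, a deubiquitinase of the proteasome, rose by 0.65 on the log2 scale, and SIAH1, a ubiquitin ligase gene with 31.2% of its exon bases overlapped, by 0.62. Without shBry replicate 3 or shNC replicate 1, SIAH1 was under the limit (log2FC 0.53 and 0.58).

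On the cadherin side, 2 of 9 tested catenin and linker genes were called (22.2%), both lower. JUP (plakoglobin, a catenin of junctions) fell from 80.2 ± 7.59 to 50.6 ± 2.75 CPM (SD, n = 3), with a log2FC of -0.67. VCL (vinculin, an actin linker) fell from 228 ± 24.6 to 122 ± 8.11 CPM (SD, n = 3), with a log2FC of -0.90 and 11.1% of its exon bases overlapped. Of 7 genes of cadherin shedding and turnover, 1 was called (14.3%), the sheddase gene ADAM17, with a log2FC of 0.66. Other genes overlapped 13.6% of the exon bases of ADAM17.
The 6 genes of vimentin relatives and linkers were all lower in shBry, as VIM was. Of these, 5 (83.3%) were called, and the median log2FC was -0.80. PLEC (plectin, a linker of filaments) had a log2FC of -0.31, under the limit. NES (nestin) fell from 132 ± 8.52 to 74.4 ± 3.84 CPM (SD, n = 3), with a log2FC of -0.83 (SE 0.08, edgeR adjusted p = 1.9e-06). SYNM (synemin) fell from 14.5 ± 0.322 to 5.26 ± 0.383 CPM, with a log2FC of -1.46, with 27.7% of its exon bases overlapped. The other 3 called genes, DES, GFAP and PRPH, had low counts (2 to 98 in a library). Other genes overlapped 56.2% of the exon bases of PRPH, 18.4% of those of GFAP and 4.22% of those of DES. The fold change of PRPH was 1.53, beside the limit of 1.5. With DESeq2, without shNC replicate 1 or without shNC replicate 2, 3 in place of 5 of the 6 genes were called.
Around fibronectin, 13 of 15 receptor and matrix genes were tested, 4 were called higher and 2 lower (46.2%). TNC (tenascin C, a matrix protein) rose from 108 ± 14.9 to 318 ± 29.6 CPM (SD, n = 3), with a log2FC of 1.56 (SE 0.11, edgeR adjusted p = 3.0e-08). TGM2, a transglutaminase that crosslinks fibronectin, fell from 1561 ± 67.4 to 501 ± 16.7 CPM (SD, n = 3), with a log2FC of -1.64 (SE 0.08, edgeR adjusted p = 7.6e-10).

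Of 10 other mesenchymal marker genes, 6 were tested and 1 was called (16.7%), S100A4, a calcium-binding protein of motile cells. It fell from 16.0 ± 1.53 to 8.60 ± 1.01 CPM (SD, n = 3), with a log2FC of -0.90 (edgeR adjusted p = 1.0e-04). Of 19 epithelial genes known as targets of repression by SNAI or ZEB factors, 16 were tested, 4 were called higher and 3 lower (43.8%). The median log2FC of the 16 was -0.06. ST14 (matriptase, a membrane protease) rose from 1.50 ± 0.311 to 6.15 ± 0.937 CPM (SD, n = 3), with a log2FC of 2.02 (SE 0.22, edgeR adjusted p = 4.1e-06). KRT8 (keratin 8), a gene with pseudogenes that could share its reads, fell from 891 ± 46.7 to 239 ± 24.3 CPM (SD, n = 3), with a log2FC of -1.90 (SE 0.09, edgeR adjusted p = 9.0e-10). Called shares of these lists are descriptions beside the 32.4% of all genes, and no list was tested as a set.

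**Figure D4:**
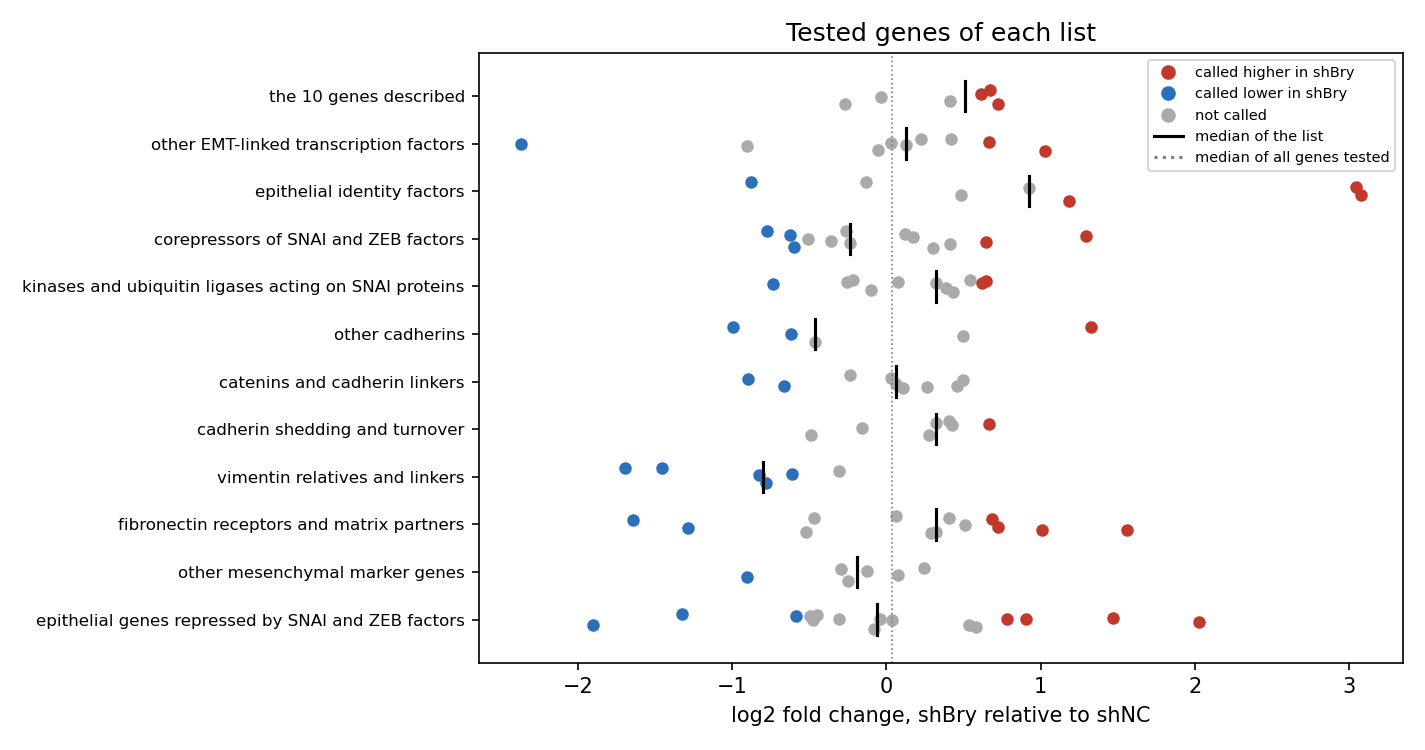
Log2 fold change of each tested gene, 1 row per list, with the EMT genes described first. Red points were called higher in shBry, blue points lower, grey points not called, black bars are list medians and the dotted line is the median of all genes tested (0.03). The genes related to vimentin lie to the left with 5 called lower, while 7 of the 11 lists hold calls on both sides.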

How the data were processed

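From RNA sequencing of 3 shBry and 3 shNC libraries the authors deposited raw counts, whole numbers of reads per gene symbol with no normalization. The submitters' processing notes name HISAT2 2.0.4, HTSeq and GRCh38. The annotation and the strand setting are not given in the sources used here. The series description calls the RNA pericardial, against the labels and methods, which were followed.

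Sequencing depth was 19319411 to 22985371 counts per library. Counts were filtered with filterByExpr (minimum count 10), scaled by TMM and compared in R 4.3.3 with edgeR 4.0.16 (glmQLFit and glmQLFTest). The code was first run on simulated counts with the same dispersion for every gene and few genes changed, a simpler setting than these data. Alternatives were limma 3.58.1 and DESeq2 1.42.0, other filters, scaling and fold change limits, each library left out and a replicate block. The 95% intervals are per gene, not adjusted. Exon lengths, locations and overlaps came from GENCODE 29, and upstream sequences from RefSeq (GRCh38.p14), all matched by symbol. The genes and lists were chosen with earlier results of these data known. From each list the text names the 2 called genes with the largest change at a mean of 1 CPM or more, and all called genes where 3 or fewer were called. Other names were chosen after their values were seen.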

Additional observations from a re-analysis of the deposited data

How the results depend on the processing

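SNAI1 stayed called in each of 12 alternative fits, and at the limit of 1.5 none of the 10 genes was called lower in any of these fits. With a fold change limit of 2, 0 of the 10 genes were called (2297 genes in all, 17 of the list genes), against 3 with the limit of 1.5 (4945 in all, 40 of the list genes). With no limit VIM joined SNAI1, ZEB1 and ZEB2, and 8139 genes in all and 70 of the list genes were called. With each library left out, 1 to 3 of the 10 genes, 4587 to 5025 genes in all and 37 to 46 of the list genes were called. The log2 fold change then lay between 0.50 and 0.80 for ZEB1, between 0.52 and 0.68 for ZEB2, between 0.35 and 0.48 for SNAI2, between -0.33 and -0.25 for VIM and between -0.18 and 0.048 for FN1, whose sign turned (FN1 0.048 without shBry replicate 1 and 0.03 without shNC replicate 1). The adjusted p of ZEB2 without shNC replicate 2 was 0.053 (edgeR's quasi-likelihood test). Over the 12 alternatives it lay between 0.0077 and 0.053 for ZEB2 and between 0.034 and 0.16 for SNAI2 (same edgeR test, DESeq2 or limma-voom).
With the replicate number as a block, 4914 genes were called, and SNAI1 (0.73), ZEB1 (0.67) and ZEB2 (0.61) kept their calls. Same-numbered libraries deviated together for number 1 only (correlation over genes 0.29, against -0.16 and -0.07 for 2 and 3). The labels do not say what the number marks. These correlations depend on each other, so they cannot show whether same-numbered libraries share a batch. Per kilobase of the longest transcript in place of all exon bases, the shNC level was 1449 RPKM for VIM, 6.41 for FN1, 3.60 for ZEB1, 1.56 for SNAI2 and 0.414 for ZEB2. In shBry this length put FN1 (6.25 RPKM) above ZEB1 (5.72), the reverse of their order over all exon bases. The replicate number, scaling and tool changed no call of the 10 genes. Counts of at most 2 per library limit what can be said of CDH1, CDH2, CDH11 and TWIST2.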
